A study of Mus musculus with 15 samples.

Results

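Expression of 10 desmosome genes was described in mouse mammary tumors driven by Erbb2: the desmosomal cadherins Dsg2, Dsg3, Dsc2 and Dsc3, the plaque genes Dsp, Pkp1, Pkp2, Pkp3 and Ppl, and the membrane protein gene Perp. They were chosen by name as components of the desmosome, without the plakoglobin gene Jup, and are 10 of the 22180 genes measured, each read from the brightest transcript cluster with that 1 gene symbol. Whole tumors of ErbB2KI mice were frozen at end burden, 1 array per tumor. The Ctnnb1 genotypes were fl/fl (HOM), fl/wt (HET) and wt/wt (WT), with 5 tumors each, with the deletion directed to the mammary epithelium, so that stroma in a tumor keeps Ctnnb1. All 15 tumors carry ErbB2KI, which the WT tumors share. Which promoter drove the recombinase, and how many mice gave the tumors, was not stated in the labels; p-values therefore cover tumor-to-tumor spread, which may be partly technical. The number in a name such as HET 1 follows the order in which tumors of that genotype are listed and is no label of the study.

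Desmosomes are button-like junctions that tie epithelial cells together and anchor their keratin filaments. Desmogleins (Dsg) and desmocollins (Dsc) are cadherins that bind across the cell gap; inside the cell, plakoglobin and plakophilins (Pkp) link their tails to desmoplakin (Dsp), which holds the keratins. Dsg2, Dsc2 and Pkp2 are the widely expressed forms, also found in simple epithelia, whereas Dsg3, Dsc3 and Pkp1 belong mainly to stratified epithelia such as skin and to basal cells. Beta-catenin, the product of Ctnnb1, is a close relative of plakoglobin that works in the neighbouring adherens junctions.

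Values are the deposited log2 array values, where a step of 1 is a doubling of signal; levels are compared between tumors, not between genes. Ctnnb1 checked the labels: it was 11.58, 11.30, 11.36, 11.15 and 12.01 in HOM 1 to HOM 5, 11.66, 11.39, 11.22, 11.63 and 11.60 in HET 1 to HET 5, and 11.71, 12.09, 12.10, 12.08 and 11.22 in WT 1 to WT 5. HOM 5 lay in the range of WT 1 to WT 4, and WT 5 in that of HOM 1 to HOM 4, so both go against their labels. Neither HOM nor HET differed from WT by the two-sided exact permutation test (p = 0.143 and 0.0952, both 0.214 adjusted over 3 comparisons; smallest possible p = 0.00794). Epithelial origin was checked with Epcam, an epithelial adhesion molecule, which was 11.38 or more in every tumor except HET 1, at 9.31. In HET 1 the mean of 15 epithelial markers was 8.09, while the other 14 tumors lay between 9.84 and 11.35. The mean of 6 B and plasma cell markers was 10.25 in HET 1 and 5.48 to 7.60 elsewhere. Skeletal muscle signal marked HET 3, where the mean of 5 markers was 11.57; the other 14 tumors lay between 5.92 and 7.17. In whole tumors, fewer cells of a type and less RNA per cell cannot be told apart.

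The desmosome genes differed widely between tumors. For Dsp, Pkp1, Pkp3, Dsg3, Dsc2, Perp and Ppl the SD within genotypes was larger than any difference between genotype means. For Dsc3 the HET minus WT difference was 2.74 beside an SD within genotypes of 1.41. It was -1.17 beside 0.63 for Dsg2 and -0.90 beside 0.73 for Pkp2. Dsg3 spanned 7.85 on the log2 scale over the 15 tumors, Pkp1 6.18, Dsc3 5.45 and Dsp 5.21, whereas Pkp3 spanned 1.94. Only 0.407% of the 14243 genes tested had a larger SD over the 15 tumors than Dsg3 (1.93), 0.674% than Dsc3 (1.77) and 1.54% than Pkp1 (1.51). The SD of Pkp3, 0.42, was exceeded by 34.7% of genes, and the median gene had 0.31. HET 2 held the highest value of 8 of the 10 genes and HET 1 the lowest value of 8, so both ends of the scale lay within HET. Without HET 1 the SD of Dsg3 was 1.57 and that of Dsp 0.96, exceeded by 1.19% and 6.73% of genes.

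**Figure D1:**
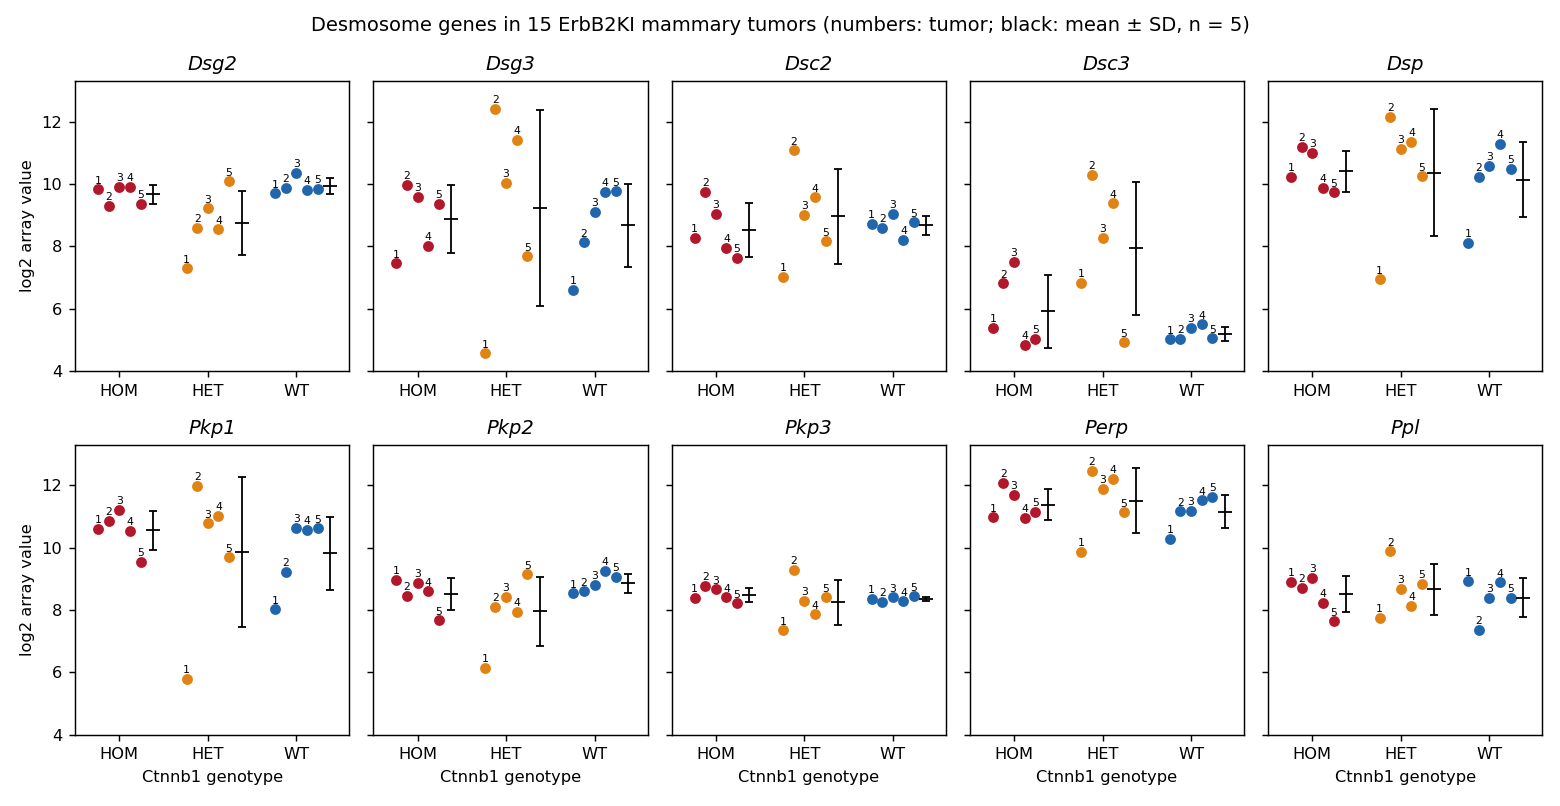
Log2 array values of the 10 desmosome genes (panels) in each tumor, grouped by Ctnnb1 genotype; numbers name the tumors and black bars give the mean ± SD of 5 tumors. HET tumors are the most spread in each panel, with HET 1 lowest for 8 genes and HET 2 highest for 8.

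Dsg3, the desmoglein of basal layers of stratified epithelia, was 7.46, 9.97, 9.59, 8.02 and 9.36 in HOM 1 to HOM 5. It was 4.57, 12.42, 10.04, 11.42 and 7.68 in HET 1 to HET 5, and 6.61, 8.13, 9.11, 9.75 and 9.77 in WT 1 to WT 5. HET 2, HET 4 and HET 3 lay above every WT tumor and HET 1 below all of them, and in HET 1 the value was below the array's median of all clusters.

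Dsc3, the desmocollin that accompanies Dsg3, was 5.39, 6.82, 7.50, 4.84 and 5.03 in HOM 1 to HOM 5. In HET 1 to HET 5 it was 6.84, 10.30, 8.27, 9.39 and 4.92, against 5.02, 5.03, 5.39, 5.51 and 5.05 in WT 1 to WT 5. It lay above the array's median in 6 tumors, namely HET 1 to HET 4, HOM 2 and HOM 3, and below it in 9, which include all WT tumors. Detection calls were not used here, so a fold change from the low values has an uncertain size. Dsc3 was the only one of the 10 genes that lay above its own mean in HET 1.

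Dsg2, the widely expressed desmoglein, ran the other way. It was 9.82, 9.30, 9.92, 9.91 and 9.37 in HOM 1 to HOM 5, 7.30, 8.59, 9.22, 8.55 and 10.09 in HET 1 to HET 5, and 9.70, 9.87, 10.37, 9.82 and 9.84 in WT 1 to WT 5. HET 1 to HET 4 lay below every WT tumor, and HET 5, with Dsc3 at its WT level, lay within the WT range. A second Dsg2 cluster with 1 symbol read 4.88 to 5.49 in all 15 tumors, below the array medians of 5.54 to 5.73, and was not used.

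Dsc2, the widely expressed desmocollin, did not follow Dsg2. Its values were 11.08 in HET 2, 9.76 in HOM 2 and 9.57 in HET 4, and between 7.02 in HET 1 and 9.05 in HOM 3 and WT 3 in the other 12 tumors. The WT tumors were close together, from 8.22 to 9.05.

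Dsp encodes desmoplakin, the plaque protein that binds keratins. It was 10.23, 11.18, 11.00, 9.88 and 9.74 in HOM 1 to HOM 5, 6.95, 12.15, 11.13, 11.34 and 10.24 in HET 1 to HET 5, and 8.12, 10.23, 10.58, 11.28 and 10.48 in WT 1 to WT 5. HET 1 and WT 1 stood apart as the lowest 2 tumors, and the other 13 lay between 9.74 and 12.15.

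The stretch of 250 bases before the start of Dsp is shown because desmoplakin is the hub of the plaque and moved with most of the other genes; it was the only member with an entry in the RefSeq promoter table. It lies on the plus strand at chr13:38151044-38151293 (GRCm38.p6), and capitals mark the GC box GGGCGG on either strand.
Dsp: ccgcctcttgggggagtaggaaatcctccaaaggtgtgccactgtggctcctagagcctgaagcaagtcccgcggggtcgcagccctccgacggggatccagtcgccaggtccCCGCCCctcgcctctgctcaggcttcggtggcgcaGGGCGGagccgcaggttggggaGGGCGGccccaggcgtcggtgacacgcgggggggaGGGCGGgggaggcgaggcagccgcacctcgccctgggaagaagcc
The GC box occurred 4 times, and 32.7% of 32851 promoter windows of the same length held it at least once on either strand. The share of windows with 4 or more was not taken. No match was found on either strand to CTTTGA (TCF/LEF core, held by 13.8% of windows), AACCGG (GRHL core, 5.62%), TGANTCA (AP-1, 6.75%), CANNTG (E-box, 66.2%), CCAAT (33.8%) or TATAAA (12.4%). GC content was 72.4%, which 6.45% of windows reached. These matches describe the letters of this window and say nothing of binding.

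Pkp1, the plakophilin of stratified epithelia, had the same 2 low tumors, HET 1 at 5.80 and WT 1 at 8.02. It was between 9.23 and 11.98 in the other 13 tumors, with HET 2 highest and HOM 3 next at 11.21. Pkp2, the widely expressed plakophilin, was 6.15 in HET 1 and 7.67 to 9.26 elsewhere, with its highest values in WT 4, HET 5 and WT 5. Pkp3, a plakophilin found across epithelia, was the steadiest: HET 2 had 9.29, HET 1 had 7.35, and the other 13 tumors lay between 7.86 and 8.77. Its 5 WT values lay within 8.27 to 8.44.

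Perp encodes a tetraspan membrane protein needed for stable desmosomes and is a known target of p63, the regulator of stratified epithelia encoded by Trp63. It was 10.97, 12.09, 11.69, 10.96 and 11.15 in HOM 1 to HOM 5, 9.86, 12.46, 11.89, 12.21 and 11.13 in HET 1 to HET 5, and 10.28, 11.16, 11.18, 11.52 and 11.64 in WT 1 to WT 5. The order of the tumors was close to that for Dsg3, with HET 1 and WT 1 lowest and HET 2 and HET 4 highest. Ppl, periplakin, a plakin of the desmosome and the cornified envelope, was 9.89 in HET 2, 7.37 in WT 2, 7.64 in HOM 5 and 7.75 in HET 1, and 8.14 to 9.03 in the other 11 tumors.

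**Figure D2:**
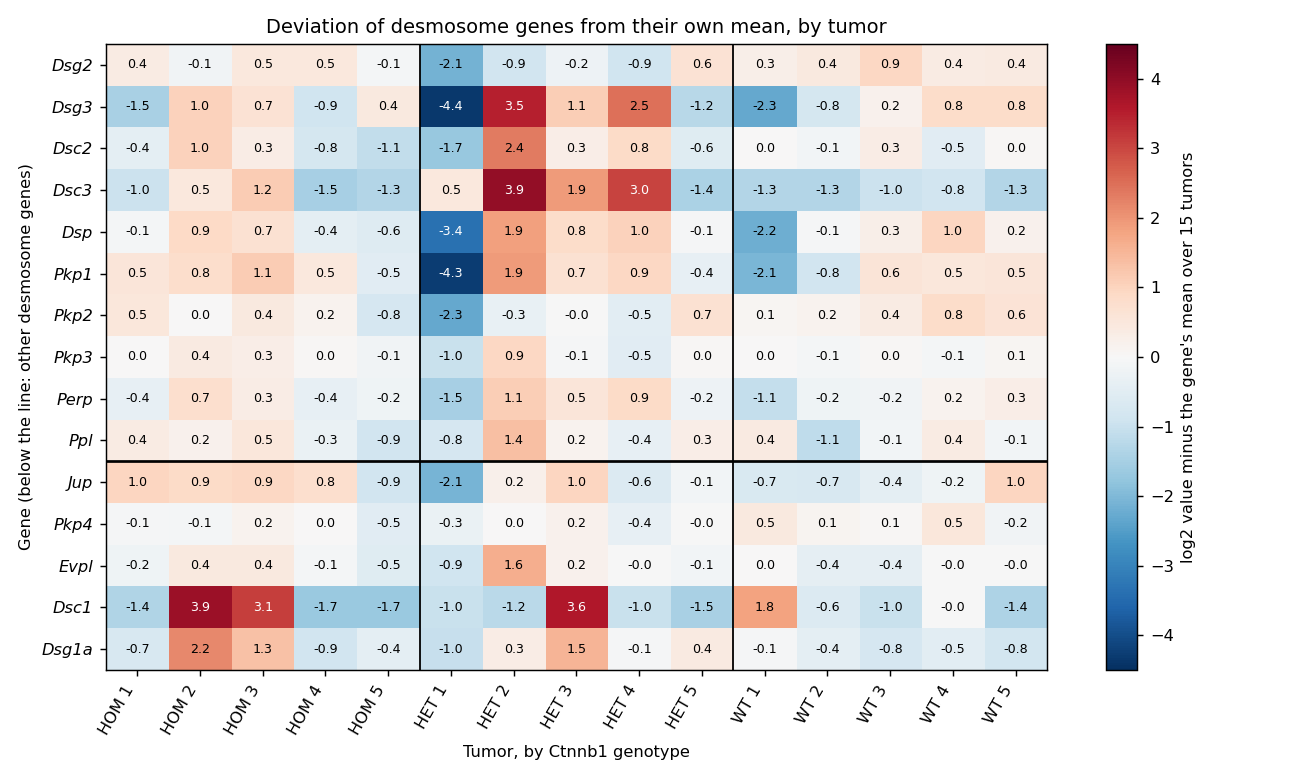
Log2 value of each gene minus its own mean over 15 tumors (color and number), with the 10 desmosome genes above the line and 5 other tested desmosome genes below it. HET 2 and HET 4 are highest for Dsg3 and Dsc3 while Dsg2 is below its mean there, and HET 1 is below the mean of 9 of the 10 genes, all except Dsc3.

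Set against each gene's own mean, the median deviation of the 10 genes was highest in HET 2 (1.61), HET 4 (0.86) and HOM 2 (0.60). It was lowest in HET 1 (-1.92), HOM 5 (-0.54) and WT 1 (-0.53). By genotype the mean of these medians was 0.040 ± 0.50 in HOM, 0.16 ± 1.33 in HET and 0.029 ± 0.37 in WT (SD, n = 5 each), so the genotypes differed by less than the spread within any of them. In HOM 3 all 10 genes lay above their means, and in HOM 2 all except Dsg2. In HET 2 the deviations ran from -0.86 for Dsg2 to 3.94 for Dsc3.

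HET against WT asked what differs with 1 floxed Ctnnb1 allele. None of the 10 genes passed the limma test after Benjamini-Hochberg adjustment over all 14243 genes tested at 0.05, a threshold that 0.014% of those genes passed. At an unadjusted p under 0.05 there were 2, Dsc3 and Dsg2, beside 13.4% of all genes. No gene of the 10 separated the groups without overlap, which 1.58% of all genes did (0.534% higher and 1.05% lower in HET). Dsc3 averaged 7.94 ± 2.13 in HET and 5.20 ± 0.23 in WT (SD, n = 5 each), a difference of 2.74 (95% interval 0.98 to 4.51, limma adjusted p = 0.226), with 4 of 5 HET tumors above every WT tumor. A gene was tested when above its array's median on at least 5 arrays, and Dsc3 was so on 6, none of them WT. Its place in the counts of each comparison is thus tied to the filter, and its WT values are low ones of uncertain fold change. Dsg2 averaged 8.75 ± 1.02 in HET and 9.92 ± 0.26 in WT, a difference of -1.17 (-1.97 to -0.37, adjusted p = 0.242), with 4 of 5 HET tumors below every WT tumor. These 2 were the only genes of the 10 with a mean difference over 1, a size that 5.08% of all genes reached.

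Leaving out 1 tumor kept both directions. Dsc3 then differed by 2.16 (without HET 2) to 3.50 (without HET 5), and Dsg2 by -1.51 (without HET 5) to -0.81 (without HET 1). The smallest adjusted p of any of the 10 genes in any setting tried was 0.0521, for Dsc3 without HET 5. With the epithelial marker mean as a covariate the difference of Dsg2 was -0.71 (adjusted p = 0.423), and that of Dsc3 was 2.78 (0.424). Over all clusters of a gene, Dsg2 differed by -0.63, since the dim second cluster then enters the mean.

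Pkp2, like Dsg2 a widely expressed form, averaged 7.95 ± 1.11 in HET and 8.85 ± 0.31 in WT, a difference of -0.90 (-1.82 to 0.016, limma adjusted p = 0.378). The difference of Pkp2 was -0.45 without HET 1 and -0.31 with the epithelial marker mean as a covariate (limma adjusted p = 0.591). The other 7 genes had intervals that spanned 0, from -0.11 for Pkp3 (-0.67 to 0.45) to 0.55 for Dsg3 (-2.03 to 3.14), with adjusted p from 0.739 to 0.991. Of the 10 genes 7 had a higher HET mean, beside 45.5% of all genes, and their median difference was 0.25, against -0.030 over all genes tested. That median rested on single tumors: it was 0.78 without HET 1, -0.24 without HET 2, -0.0039 without HET 4 and -0.035 without WT 1. The SD was larger in HET than in WT for each of the 10 genes, for example 3.15 in HET and 1.33 in WT for Dsg3. This was not particular to them: the mean of the epithelial markers had an SD of 1.30 in HET and 0.37 in WT, and that of the fibroblast markers 1.90 and 1.06. Of the lists, only hemidesmosome genes (0.42 and 0.58) and pan-leukocyte markers (0.583 and 0.586) went the other way. The share over all genes was not taken, and this difference in spread was not tested.

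HOM against WT asked the same for 2 floxed alleles. None of the 10 genes passed (0% of all genes did), none was at an unadjusted p under 0.05 (1.7% of all genes were), and none separated the groups (0.281% of all genes, 0.112% higher and 0.169% lower in HOM). A mean difference over 1 was seen for 0 of the 10, against 0.807% of all genes, and 7 had a higher HOM mean, against 47.2%. All 10 adjusted p-values from limma round to 1. Dsc3 had a mean of 5.92 ± 1.18 in HOM tumors, against 5.20 ± 0.23 in WT tumors, which is a difference of 0.72 (-1.04 to 2.48), carried by HOM 2 and HOM 3. For Pkp1 the means were 10.55 ± 0.62 in HOM tumors and 9.82 ± 1.17 in WT tumors; they differed by 0.74 (-1.24 to 2.72), and by 0.29 without WT 1. Dsg2 stood at 9.66 ± 0.30 in HOM tumors and 9.92 ± 0.26 in WT tumors, so that it differed by -0.26 (-1.06 to 0.54), and Pkp2 differed by -0.34 (-1.26 to 0.58), by -0.13 without HOM 5 and by -0.080 without WT 5 and HOM 5. The other 6 genes differed by -0.14 to 0.27. The median difference of the 10 genes was 0.17, against -0.012 over all genes, and it was -0.064 without WT 1 and 0.34 without the 2 tumors whose Ctnnb1 goes against the labels. The intervals leave room for differences of over 1 in either direction for Dsp, Pkp1, Dsg3, Dsc2 and Dsc3, as 5 tumors per group cannot resolve them.

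HOM against HET compared both floxed genotypes. Again no gene of the 10 passed (0% of all genes), 2 were at an unadjusted p under 0.05 (7.93% of all genes), and none separated the groups (1.03% of all genes, 0.611% higher and 0.414% lower in HOM). A mean difference over 1 was seen for 1, Dsc3, against 3.07% of all genes, and 5 had a higher HOM mean, against 52.4%. Dsc3 averaged 5.92 ± 1.18 in HOM and 7.94 ± 2.13 in HET, a difference of -2.02 (-3.79 to -0.26, limma adjusted p = 0.587). Dsg2 averaged 9.66 ± 0.30 in HOM and 8.75 ± 1.02 in HET, a difference of 0.91 (0.11 to 1.71, adjusted p = 0.589) that was 0.55 without HET 1. With the epithelial covariate that of Dsg2 was 0.40. This comparison shares its HET tumors with the one against WT, and Dsg2 was low in HET 1 to HET 4 while Dsc3 was highest in HET 2, HET 4 and HET 3. Pkp1 differed by 0.70 and by -0.31 without HET 1, and Dsp by 0.043 and -0.81 without HET 1. Dsg3 differed by -0.35, by -1.51 without HET 1 and by 0.45 without HET 2. The median difference of the 10 genes was -0.048, against 0.014 over all genes, and it was -0.46 without HET 1 and 0.47 without HET 2.

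**Figure D3:**
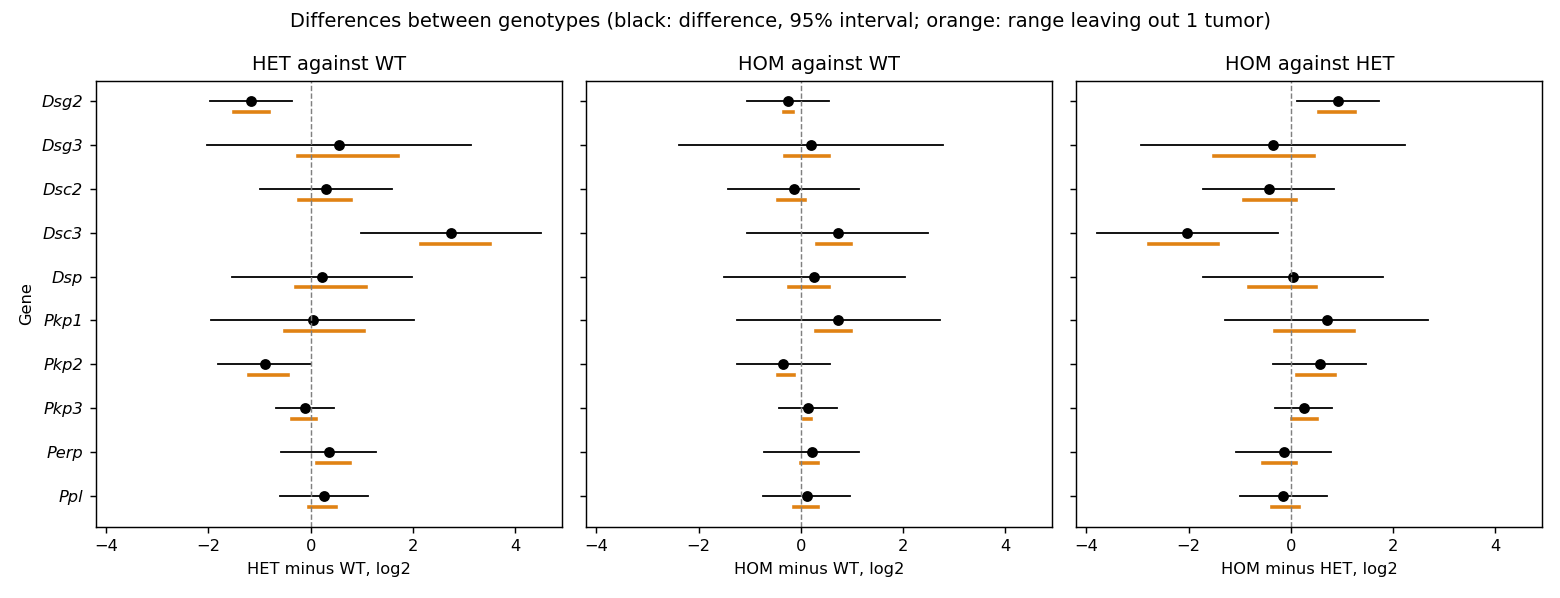
Difference of each desmosome gene on the log2 scale in the 3 comparisons (black points, with 95% limma intervals as black lines) and its range when 1 tumor is left out (orange). Dsc3 and Dsg2 in the comparisons with HET have intervals that leave out 0 and stay on one side in the orange range, though neither passed adjustment over all genes.

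The 10 genes fell into patterns across tumors, given here as a description over tumors that share 3 genotypes. Of the 45 pairs 43 had a positive Pearson's r over 15 tumors, with a median of 0.56, but HET 1 carried much of this: without it 31 pairs were positive and the median was 0.37. Dsp, Pkp1, Dsg3, Perp, Dsc2 and Dsc3 varied together, a grouping made after the values were seen. Their 15 pairs had r of 0.36 to 0.96 over 15 tumors (Spearman's rho 0.59 to 0.96) and 0.58 to 0.94 without HET 1 (rho 0.65 to 0.96), or 0.54 to 0.93 when the genotype means were also removed. Without the 2 tumors farthest from the median of a pair's first gene, r was 0.33 to 0.92, lowest for Dsc3 and Perp, whose r of 0.63 thus leaned on HET 2 and HET 4. Dsg3 and Perp were the closest pair (r = 0.96 and rho = 0.96 over 15 tumors; r = 0.94 and rho = 0.96 without HET 1; r = 0.92 without HET 1 and HET 2, the tumors farthest from the median of Dsg3). Dsp had r = 0.95 with Pkp1 and 0.94 with Perp over 15 tumors (rho = 0.85 and 0.93). Without HET 1 these were 0.90 and 0.92 (rho = 0.82 and 0.91), and without HET 1 and WT 1, the tumors with the most distant Dsp, r was 0.79 and 0.90.

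Dsg2 and Pkp2 formed the other pattern. They correlated with each other at r = 0.90 and rho = 0.76 over 15 tumors and 0.74 and 0.70 without HET 1. Against the 6 genes above, all 12 pairs were negative without HET 1, with r from -0.83 for Dsg2 and Dsc3 to -0.034 for Pkp1 and Pkp2. Over all 15 tumors only 2 of these 12 were negative by Pearson's r and 10 by rho, because every gene of the 12 pairs except Dsc3 was at its lowest in HET 1. With genotype means removed and HET 1 left out, 10 of the 12 stayed negative and the median was -0.30 instead of -0.45. Dsc2, a widely expressed form, thus varied with the stratified forms Dsg3 and Dsc3 (r = 0.71 and 0.83 without HET 1) and not with Dsg2 (r = -0.63). Without HET 1 and HET 2, the r of Dsc2 was 0.52 with Dsg3 and 0.70 with Dsc3. The epithelial markers Epcam and Cdh1 moved with Dsg2 and Pkp2. Without HET 1, Epcam had r = 0.68 with Dsg2 and 0.77 with Pkp2 (rho = 0.65 and 0.67), and Cdh1 0.62 and 0.79 (rho = 0.72 and 0.68). For Epcam r was 0.51 and 0.72 without HET 1 and HET 4, and for Cdh1 0.59 and 0.78 without HET 1 and HET 5. The part of epithelial content in the values of Dsg2 and Pkp2 was not tested. Pkp3 and Ppl were each other's closest partner without HET 1 (r = 0.70, rho = 0.54), though their r was 0.47 without HET 1 and HET 2.

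**Figure D4:**
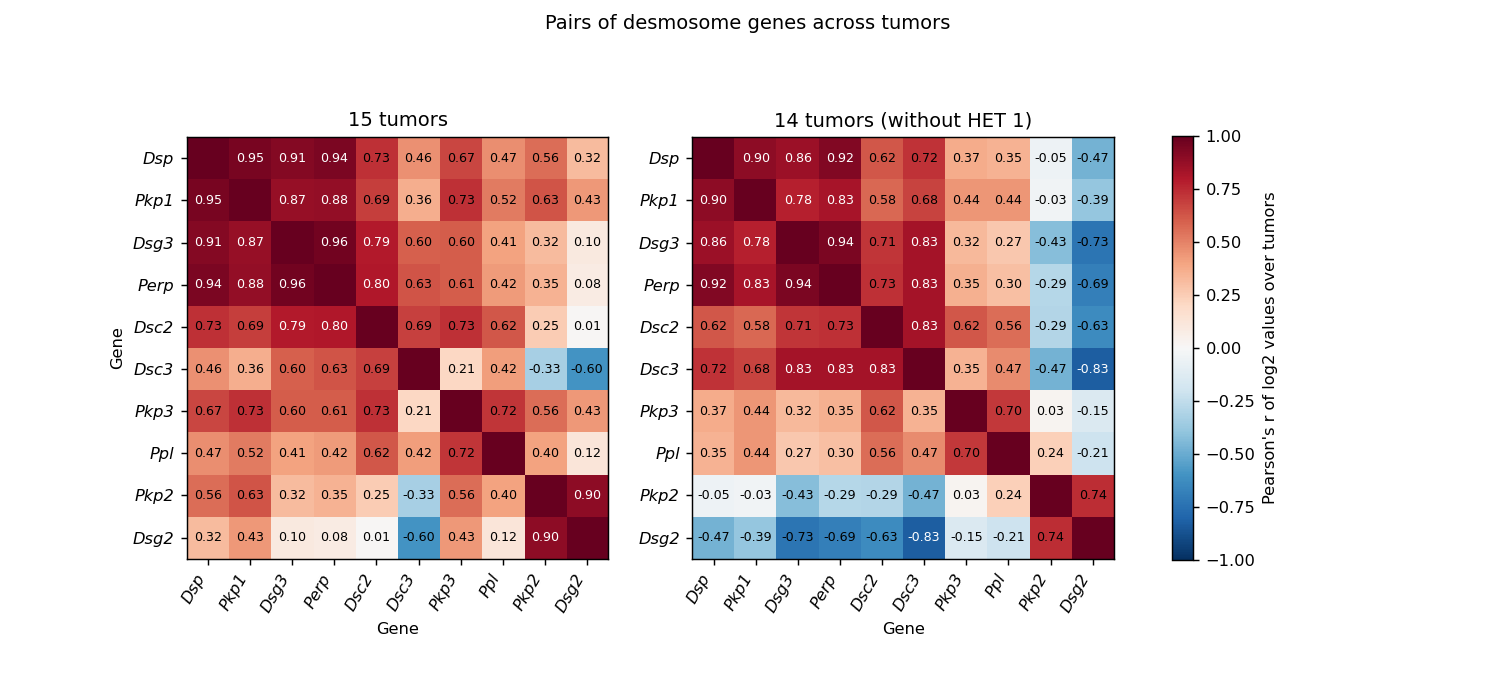
Pearson's r between each pair of desmosome genes over 15 tumors (left) and over 14 tumors without HET 1 (right). Without HET 1, Dsg2 and Pkp2 have negative r with Dsp, Pkp1, Dsg3, Perp, Dsc2 and Dsc3 and r = 0.74 with each other.

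The 4 cadherin genes lie in 1 cluster of desmosomal cadherin genes in the RefSeq gene table, in the order Dsc3, Dsc2, Dsc1, Dsg1c, Dsg1a, Dsg1b, Dsg4, Dsg3, Dsg2. Neighbours did not always vary together: Dsg3 and Dsg2 had r = 0.10 over 15 tumors and -0.73 without HET 1. Beyond Dsc3 lies Cdh2, which encodes N-cadherin of mesenchymal and neural cells. Cdh2 was highest in HET 1, at 10.74, where 8 of the 10 desmosome genes were lowest, and its r with Dsg2 was -0.59 over 15 tumors. HET 1 had both the highest Cdh2 and the lowest Dsg2, and this r was not taken without HET 1. On the other side lies Ttr, the transthyretin gene, which stayed within 5.56 to 6.56.

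Other desmosome genes were measured too. Of the 8 on the list 5 were tested, and 0 passed in each of the 3 comparisons. At an unadjusted p under 0.05 there were 0 as well, beside 13.4% of all genes in HET against WT, 1.7% in HOM against WT and 7.93% in HOM against HET. Jup, plakoglobin, was 12.79 to 12.98 in HOM 1 to HOM 4, HET 3 and WT 5, and at most 12.25 elsewhere; without HET 1 its r with the 10 genes was 0.56 at most, for Pkp1. Evpl, envoplakin, the partner of periplakin, was 8.63 in HET 2 and 6.12 to 7.43 elsewhere. Pkp4, a plakophilin relative of cell contacts, spanned 9.25 to 10.27. Dsc1 and Dsg1a, cadherins of the upper epidermal layers, were highest in 3 tumors: Dsc1 was 9.90 in HOM 2, 9.17 in HOM 3 and 9.64 in HET 3, and Dsg1a was 8.31, 7.47 and 7.66 there. Elsewhere Dsc1 was 7.84 in WT 1 and at most 6.03 in the rest, and Dsg1a was at most 6.55. In HET 2 and HET 4, the tumors with the highest Dsg3 and Dsc3, Dsc1 was 4.82 and 5.06. Dsg1a, Dsg1b and Dsg1c are near-identical copies, so their signals may be shared, which was not tested. Dsg1c was 3.09 in HOM 2 and 3.03 in HET 3, where Dsg1a was 8.31 and 7.66. Dsg1b, Dsg1c and Dsg4 were not tested and lay below the array's median on 11, 15 and 14 arrays.

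Regulators and junction partners gave no call. In the list of desmosome regulators 10 genes were tested and 0 passed in any comparison. The unadjusted p was under 0.05 for 2, 0 and 2 of them in HET against WT, HOM against WT and HOM against HET. Over all genes these shares were 13.4%, 1.7% and 7.93%. Trp63 was 8.76, 9.13, 8.85, 8.03 and 7.04 in HOM 1 to HOM 5, 6.38, 10.37, 9.67, 8.98 and 7.16 in HET 1 to HET 5, and 7.23, 7.96, 6.94, 8.66 and 7.98 in WT 1 to WT 5. The groups overlapped, and HET 2 was highest and HET 1 lowest, as for Dsg3. Its r was 0.82 with Dsc3, 0.78 with Perp and -0.68 with Dsg2 without HET 1 (rho = 0.79, 0.71 and -0.64), and 0.73, 0.70 and -0.54 without HET 1 and HET 2. With Dsp, Pkp1, Dsg3 and Dsc2 its r was 0.68 to 0.75 without HET 1, and 0.50 to 0.66 without both. For Pkp2, Pkp3 and Ppl it was -0.17, 0.46 and 0.54 without HET 1, and 0.0036, 0.061 and 0.30 without both. Keratins that desmosomes anchor had 7 tested members, 0 of which passed in any comparison. All 7 had a higher mean in HOM than in HET and in HOM than in WT, beside 52.4% and 47.2% of all genes. The median differences of the keratins were 0.96 and 0.56. Against HET this rested largely on HET 1: without it, in a setting added after the values were seen, the median was 0.28, with Krt14 at -0.057 and 6 of 7 keratins above 0. The mean of the 7 keratins was 10.87 to 11.16 in HOM 1 to HOM 4, HET 3 and WT 5, and at most 10.59 elsewhere. Jup was also highest in these tumors, at 12.79 to 12.98, and a link between Jup and the keratins was not tested. Krt14, the basal partner keratin, averaged 12.17 ± 0.70 in HOM, 11.21 ± 2.54 in HET and 10.54 ± 1.66 in WT. For adherens junction genes 10 were tested, and for hemidesmosome genes 8, with 0 past the threshold in any comparison. Cdh1, E-cadherin, was 11.23 to 12.16 in every tumor except HET 1 (8.38), so it did not follow Dsg3 in HET 2 and HET 4.

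**Figure D5:**
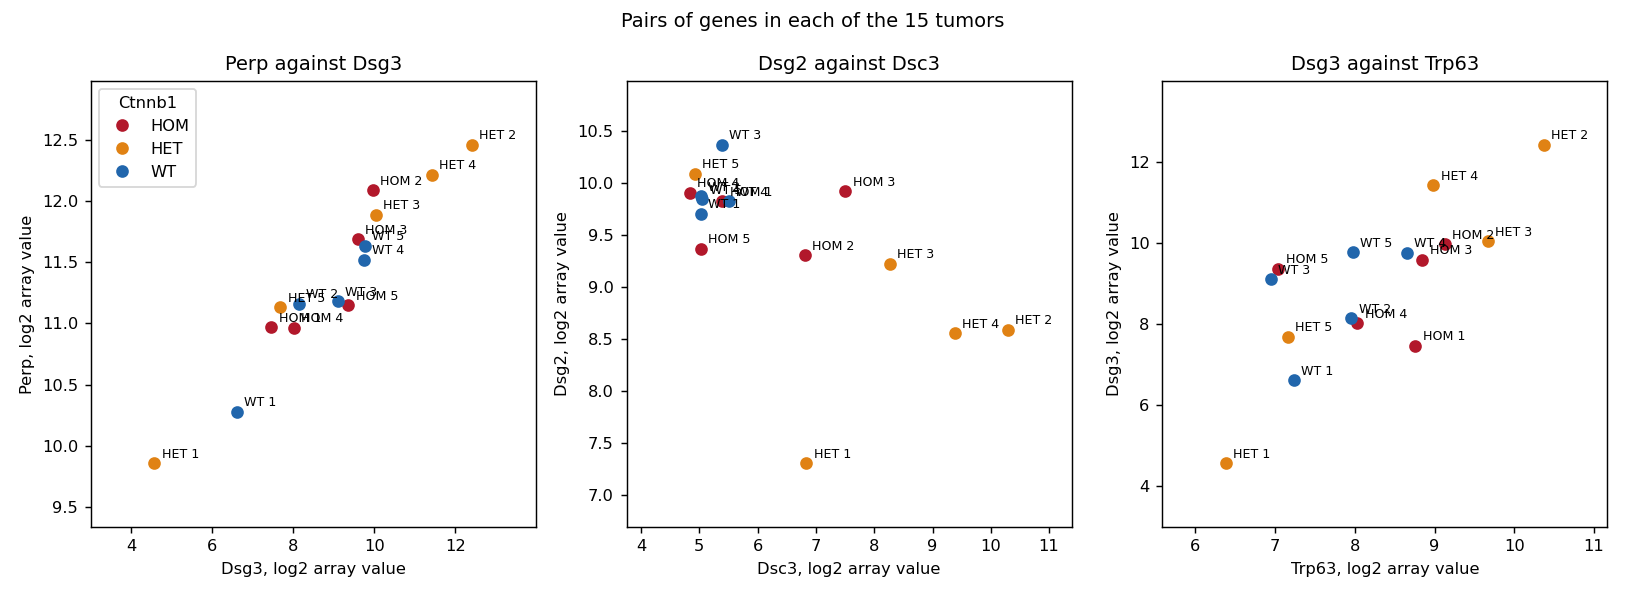
Log2 array values of Perp against Dsg3 (left), Dsg2 against Dsc3 (middle) and Dsg3 against Trp63 (right) in each tumor, colored by Ctnnb1 genotype. HET 2 and HET 4 lie at the high end of Dsg3, Perp and Dsc3 with Dsg2 at 8.59 and 8.55, and HET 1 stands apart in each panel.

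Markers of squamous and epidermal cells were high in the tumors with high desmosome values. Their mean over 13 tested markers was 6.67 to 10.15 in HOM, 6.10 to 10.42 in HET and 6.61 to 8.40 in WT. It was highest in HET 2 (10.42), HOM 2 (10.15), HET 3 (9.58), HOM 3 (9.27) and HET 4 (8.70), the 5 tumors that also had the highest median deviation of the desmosome genes. Dsg2 was below its own mean in 4 of these 5 tumors, all except HOM 3. Krt6a, a keratin of activated and squamous epithelium, was 12.62 in HET 2 and 4.31 in HET 1, and involucrin (Ivl), a cornified envelope protein, was 11.16 in HET 2 and 5.47 in HET 1. The late epidermal markers loricrin (Lor) and filaggrin (Flg) stayed between 5.53 and 6.29 and between 4.75 and 6.29 in all 15 tumors. Basal and myoepithelial markers were highest in HET 4 (10.01) and HET 2 (9.05), against 6.70 to 8.76 in the other 13 tumors. Of this list, Trp63 and Krt14 were 8.98 and 12.77 in HET 4, below their 10.37 and 13.43 in HET 2. Fibroblast and endothelial markers were also highest in HET 4, at 12.23 and 10.32. The part of these cell types in the desmosome values was not tested.

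Genes outside the list whose pattern was most like the mean deviation of the 10 genes were Fam83b, Cldn1, AI661453, Serpinb5 and Mir205 (r = 0.90, 0.90, 0.89, 0.89 and 0.89 over 15 tumors; rho = 0.86, 0.88, 0.71, 0.88 and 0.84). Cldn1 encodes a claudin of tight junctions, Serpinb5 the epithelial serpin maspin, and Mir205 a microRNA of epithelial cells. Without HET 1 and HET 2, the farthest tumors, r was 0.84 for Cldn1, 0.78 for Serpinb5, 0.71 for Fam83b and Mir205, and 0.56 for AI661453. Without HET 1 alone the closest were Gltp, Pi15, Serpinb8, Tmprss11b and Defb14 (r = 0.92, 0.92, 0.91, 0.91 and 0.90), so the 2 sets of 5 shared no gene. Tmprss11b is a membrane protease of squamous epithelia and Defb14 a beta-defensin. Trp63 ranked at 18 of 14233 genes over 15 tumors (r = 0.84) and at 44 without HET 1 (0.83). Klf4, a regulator of epidermal differentiation, ranked at 15 without HET 1 (r = 0.87), and at 1964 with it (0.31). Of the tested desmosome regulators these 2 had the highest r without HET 1. For the others it was 0.55 for Klf5, 0.54 for Grhl3, 0.37 for Ovol1 and 0.23 for Ovol2. It was -0.029 for Grhl2, -0.038 for Grhl1, -0.061 for Tfap2a and -0.36 for Tfap2c.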

How the data were processed

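Per the labels' protocols, labelled sense-strand cDNA was made from total RNA with an Affymetrix whole-transcript kit, 1 array per tumor. The authors deposited log2 array values for 41345 transcript clusters; Affymetrix Expression Console and the Transcriptome Analysis Console are listed in the submitters' processing notes, and how background was corrected and arrays were normalized, with which versions and genome build, is not given in the sources used here. Precision is limited by the number of arrays. Clusters were named through the platform annotation (23521 with 1 symbol, 1814 with several, which name no gene), and the brightest per gene was kept. A gene was tested when above its array's median on at least 5 arrays, which all 10 desmosome genes were; Dsc3 passed on 6. One limma model (limma 3.58.1, R 4.3.3) held all 15 tumors and 3 genotypes (12 residual degrees of freedom, two-sided, Benjamini-Hochberg over 14243 genes). The test was checked on simulated data. Correlations are descriptions without p-values. GRCm38.p6 tables served for gene order and the Dsp sequence. The desmosome genes, gene lists and settings were chosen with earlier results of these data known. All 10 genes, the other desmosome genes, Cdh1, Ctnnb1, Trp63, Krt14, Epcam and the 5 genes most like the mean pattern were to be named. Krt5 has no cluster of its own. Cdh2, Ttr, Krt6a, Ivl, Lor, Flg, Klf4 and the regulators listed beside Klf4 were named after their values were seen.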

Additional observations from a re-analysis of the deposited data

Results flagged for a closer look

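Of the 30 groups of 5 tumors formed by the 10 genes and 3 genotypes, 1 held a tumor far from the others by Dixon's test at the 95% level, and chance gives about 5% of groups. Dsg2 in WT 3 was 10.37, above the other 4 WT tumors at 9.70 to 9.87; without WT 3 Dsg2 differed by -0.15 between HOM and WT instead of -0.26. HET 1 did not reach the level for any gene, as the other HET tumors were spread too.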

How the results depend on the processing

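None of the 10 genes passed the threshold in any of 78 combinations of setting and comparison. No paired analysis was possible because the labels match no tumor of a genotype to a tumor of another. Dsc3 was not tested with a filter at the 75th percentile. Of 777 values for single genes 48 changed sign, none of them past the threshold. For HET against WT, Pkp3 turned to 0.081 with array weights, 0.16 with the epithelial covariate and 0.17 without HET 1 and HET 3. For HOM against WT, array weights turned Dsp to -0.047, Dsg3 to -0.48 and Perp to -0.031, and leaving out WT 5 and HOM 5 turned Dsc2 to 0.11. For HOM against HET, Dsp turned to -0.47 with array weights; the epithelial covariate gave -0.79 for Dsp, -0.37 for Pkp1, -0.089 for Pkp2 and -0.046 for Pkp3; leaving out HET 1 and HET 3 gave -0.84 for Dsp, -0.34 for Pkp1 and -0.028 for Pkp3; and leaving out WT 5 and HOM 5 gave 0.066 for Ppl. The cause was not tested.

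Leaving out 1 tumor, HET against WT ranged from -0.28 to 1.08 for Dsp, -0.50 to 1.05 for Pkp1, -0.37 to 0.11 for Pkp3, -0.25 to 1.72 for Dsg3, -0.23 to 0.79 for Dsc2 and -0.042 to 0.49 for Ppl. HOM against WT ranged from -0.24 to 0.55 for Dsp, -0.31 to 0.56 for Dsg3, -0.45 to 0.086 for Dsc2, -0.0025 to 0.34 for Perp and -0.14 to 0.33 for Ppl. HOM against HET ranged from -0.81 to 0.49 for Dsp, -0.31 to 1.23 for Pkp1, -1.51 to 0.45 for Dsg3, -0.92 to 0.090 for Dsc2, -0.55 to 0.099 for Perp and -0.38 to 0.16 for Ppl. Ctnnb1 differed by -0.49 to -0.27 in HET and -0.51 to -0.28 in HOM from WT, past the threshold only without WT 5 (exact permutation p = 0.00794 and 0.0317), and by -0.15 to 0.061 between HOM and HET.

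Counts over all genes for HET against WT were 2 as reported, 1 with quantile normalization, with the 2 genotypes alone and with the epithelial covariate, 0 with the 75th percentile filter and with array weights, 10 without HET 1 and HET 3, and 1 to 48 leaving out 1 tumor (48 without HET 3, 18 without HET 5). HOM against WT gave 0, and 4 without WT 5 and HOM 5. HOM against HET gave 0, 6 without WT 5 and HOM 5, 1 without HET 1 and HET 3, and 0 to 3 leaving out 1 tumor (1 without HET 3, 3 without HET 5).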
